A study of Mus musculus with 30 samples.

Results

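TIMP2 KO and WT hippocampi of XY mice were compared, 6 TIMP2 KO males against 10 WT males, which together are 16 of the 30 mice sequenced. Members were chosen by the genotype and sex given for each mouse. TIMP2 KO males carried a constitutive knockout (a Jackson Laboratory line, not restricted to a cell type) on the C57BL/6J strain that the labels name for all mice, and no treatment is named for either group. The other 14 mice were females (7 TIMP2 KO and 7 WT), and they serve below only to set a value beside the male one. The labels give no age for these mice, and heterozygotes were not used. Each value is the number of poly(A)-selected RNA-seq reads that fell on a gene in a bulk hippocampus, scaled to the size of its library (CPM). Totals lay between 26021540 and 33964732 counts in TIMP2 KO males and between 19445246 and 32098386 in WT males. WT mouse 6 stood apart by its mitochondrially encoded respiratory genes, whose mean was 6.43 on the log2 CPM scale against 7.52 to 7.73 in the other WT males. TIMP2 KO mouse 18 stood apart in markers of the CA1 field, as given below. Both groups fit the male label, since Xist had between 9 and 24 counts in every male.

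TIMP2 is a secreted protein that inhibits matrix metalloproteinases, the enzymes that cleave proteins of the extracellular matrix. It is also needed by the membrane protease MMP14 to activate the gelatinase MMP2, so it acts on both sides of matrix turnover. In the hippocampus the matrix surrounds synapses and, as perineuronal nets, the bodies of certain neurons. The males address whether loss of TIMP2 changes hippocampal transcripts for the matrix, synapses, neurogenesis and neuronal activity in one sex taken alone.

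Few transcripts differed beyond correction for the number of genes tested. Timp2 and its neighbour 2900041M22Rik were downregulated and Rab40b was upregulated, and all 3 lie on chromosome 11. These were the only genes with an adjusted p under 0.05 among 16607 tested (0.0181%) by Benjamini-Hochberg adjustment of the quasi-likelihood test of edgeR. At an unadjusted p under 0.05, the study's threshold for differentially expressed genes (DEGs), 540 genes were called (3.25%). A test without any difference between groups would call 5% of the genes, or 830.35 here. Of the 540 DEGs, 268 were upregulated (1.61% of all genes tested) and 272 downregulated (1.64%). Changes were small, with a median absolute log2 fold change of 0.175 and 297 DEGs (55%) below 0.2. Only 6 changed at least 2-fold. Without WT mouse 6 there were 539 DEGs and again 3 genes past correction. The CPM ranges of the groups did not overlap in 4 genes (0.0241%). Timp2 and 2900041M22Rik were lower in every TIMP2 KO male than in any WT male, and Rab40b and Cdiptos were higher. Of the 8008 ways to pick the TIMP2 KO males, only the highest or the lowest set separates a gene fully. Over 16607 genes, chance alone would give about as many, so separation by itself does not mark a difference. Cdiptos did not pass correction and was named after its values were seen. The common biological coefficient of variation was 7.1%, and the median standard error of a log2 fold change was 0.0452 over the 9957 genes with at least 10 CPM in WT males.

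Timp2 (ENSMUSG00000017466) occupies 118301069 to 118355740 on the minus strand of chromosome 11 in GRCm38. Its level in TIMP2 KO males was 167 CPM in mouse 1, 167 in mouse 10, 159 in mouse 14, 155 in mouse 15, 129 in mouse 18 and 159.7 in mouse 20. In WT males it ranged from 262 to 381 CPM with a median of 336. No TIMP2 KO male reached the lowest WT male. The mean was 156 ± 14.0 CPM in TIMP2 KO males (SD, n = 6) and 321 ± 37.4 in WT males (SD, n = 10). This was a log2 fold change of -1.04 (edgeR standard error 0.07, adjusted p = 1.83e-08), which left 48.6% of the WT level. Counts per gene do not say which part of the transcript the remaining reads came from. In females the log2 fold change was -0.95, and the test of the difference between the sexes gave an edgeR p of 0.377.

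The noncoding gene 2900041M22Rik, 0.687 Mb from Timp2, was the only other gene that fell past correction. It lay between 0.456 and 0.681 CPM in TIMP2 KO males and between 1.01 and 2.40 CPM in WT males, a log2 fold change of -1.68 (standard error 0.17, edgeR adjusted p = 1.41e-05). Rab40b, which encodes a small GTPase of the Rab family that recruits a ubiquitin ligase, is 3.00 Mb from Timp2. Its values in TIMP2 KO males were 62.8, 60.6, 74.1, 63.0, 71.3 and 66.0 CPM in mice 1, 10, 14, 15, 18 and 20. WT males had 49.7 to 58.2 CPM with a median of 54.6, so that every TIMP2 KO male was above every WT male. The rise was 0.29 in log2 units (standard error 0.04, edgeR adjusted p = 0.00863). In females Rab40b had a log2 fold change of 0.15, and the p for the difference between sexes was 0.0637 in edgeR's test of the interaction.

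**Figure D1:**
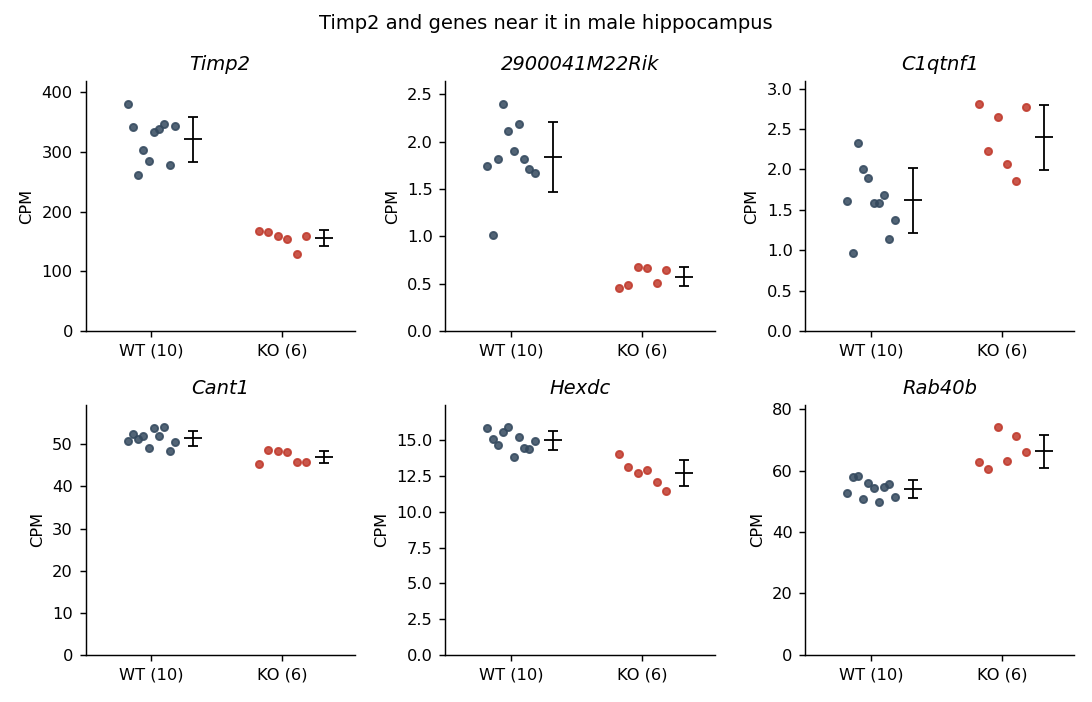
Levels in CPM (vertical axis from 0) of Timp2 and 5 genes near it, 1 point per male mouse, with the mean and SD beside the points. WT males (10) are on the left and TIMP2 KO males (6) on the right. The groups are separate for Timp2, 2900041M22Rik and Rab40b and overlap for C1qtnf1, Cant1 and Hexdc.

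The stretch of chromosome 11 around Timp2 held a larger share of DEGs than the rest of the genome. Less than 10 Mb away, 29 of the 210 genes that were tested besides Timp2 were DEGs (13.8%), 10 higher and 19 lower in TIMP2 KO males, against 476 of 15260 genes on other chromosomes (3.12%). The share was 18.8% (6 of 32) within 1 Mb and 12.9% (23 of 178) between 1 and 10 Mb. Farther out it was 2.11% (4 of 190) between 10 and 20 Mb, 2.69% (6 of 223) between 20 and 40 Mb and 3.23% (22 of 681) over the rest of the chromosome. All 29 lay within 3.26 Mb of Timp2. In the female mice, 22 of 206 genes within 10 Mb had an unadjusted p under 0.05 (10.7%), beside 5.02% of all 16397 genes tested in that sex. The knockout allele is carried on chromosome 11 together with the DNA that flanks it. For genes near Timp2, loss of TIMP2 and a difference in that DNA therefore cannot be told apart here, and neither was tested.

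Several of these neighbours ranked among the smallest p of the whole male comparison. Hexdc, which encodes a hexosaminidase, fell from 15.0 ± 0.676 CPM in WT to 12.7 ± 0.894 in TIMP2 KO males (log2 fold change -0.24, standard error 0.05). Mettl23, a methyltransferase gene, decreased by 0.25 in log2 units (standard error 0.06). Cant1 encodes a calcium-activated nucleotidase used in proteoglycan synthesis and lies 0.0506 Mb from Timp2. It was at 45.4 to 48.7 CPM in TIMP2 KO males and 48.3 to 54.0 in WT males, a difference of -0.13 on the log2 scale (standard error 0.03). Next to it, C1qtnf1, a secreted protein of the C1q and TNF-related family, rose from 1.62 ± 0.401 to 2.40 ± 0.399 CPM (log2 fold change 0.54, standard error 0.15). Fads6, a member of the fatty acid desaturase family, decreased by 0.17 in log2 units (standard error 0.05). None of these 5 passed correction (adjusted p between 0.323 and 0.9998 in edgeR). Ogfod3 and Cybc1 lie opposite Hexdc and share bases with it, as do Jmjd6, Srsf2 and Mfsd11 with Mettl23. The strand setting of the counting is not given in the sources used here, so reads on those genes cannot be told apart.

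**Figure D2:**
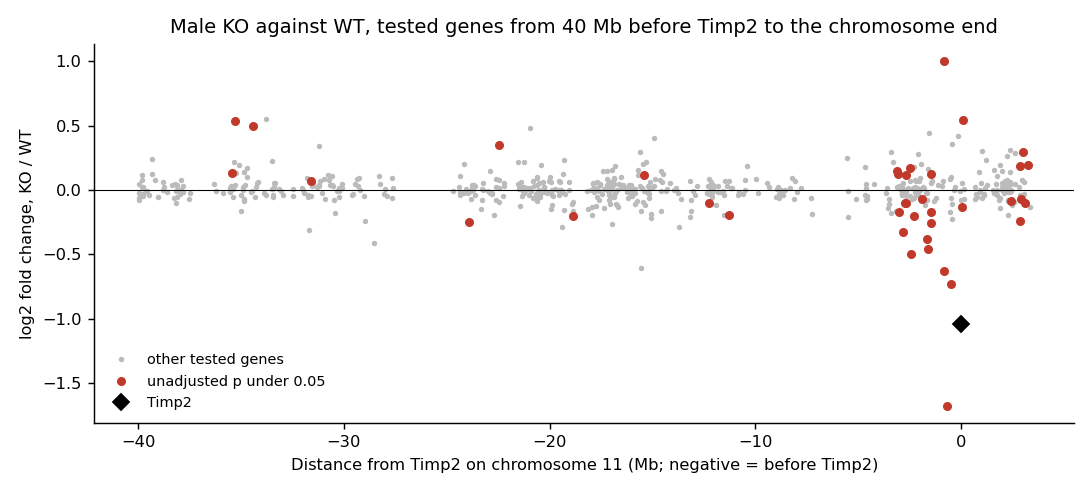
Log2 fold change of TIMP2 KO over WT males (vertical axis) for tested genes on chromosome 11, by distance from Timp2 in Mb (horizontal axis, up to 40 Mb before Timp2 and to the chromosome's end after it). Red points are genes with an unadjusted p under 0.05, 29 of which lie within 3.26 Mb of Timp2 (black diamond).

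Away from chromosome 11, the genes with the smallest p differed by modest amounts. Klhl25, a substrate adaptor of a ubiquitin ligase, was at 10.1 to 11.3 CPM in TIMP2 KO males and 8.55 to 10.4 in WT males (log2 fold change 0.20, standard error 0.05). Ruvbl1, an ATPase of chromatin remodelling complexes, rose by 0.12 (standard error 0.03), as did Tmem41b, a lipid scramblase of the endoplasmic reticulum (0.12, standard error 0.03). Tent5a, a poly(A) polymerase, rose by 0.29 (standard error 0.08), Ppp1cc, a catalytic subunit of protein phosphatase 1, by 0.13 (standard error 0.04), and Gsr, glutathione reductase, by 0.13 (standard error 0.04). The noncoding A930038B10Rik rose by 0.50 (standard error 0.15).

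Among the downregulated DEGs, Gm16551 fell from 1.33 ± 0.281 to 0.870 ± 0.183 CPM. Aldh7a1, an aldehyde dehydrogenase of lysine breakdown, fell from 89.9 ± 3.86 to 83.1 ± 2.72 CPM. Cyb561a3, a lysosomal cytochrome b561, fell from 7.02 ± 0.631 to 5.87 ± 0.533 CPM, and it overlaps Tmem138 and Tkfc on the opposite strand. For these genes outside chromosome 11 the adjusted p in edgeR was 0.9998. Exact permutation of mean log2 CPM over the 8008 ways to pick 6 of the 16 males gave p = 0.00112 for Klhl25, 0.0004995 for Ruvbl1 and for Tmem41b, and 0.00337 for Cyb561a3. These genes were picked by their small edgeR p in the same 16 males, so the permutation p, uncorrected, adds no separate support. The same holds for the permutation p of every called gene below.

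Rapid immediate early genes, whose transcription starts shortly after a neuron fires and needs no new protein, were the largest group of upregulated genes among the lists. Of 41 tested, 10 were upregulated and 0 downregulated (24.4%, beside 1.61% of all genes tested in that direction), and 36 had a log2 fold change above 0. The median of the list was 0.15 on the log2 scale, beside -0.000179 over all genes tested. All gene lists here and below were chosen with earlier results of these data known. Their shares therefore describe these mice and are no separate support. Many of these genes answer to the factors CREB, which binds the CRE, and SRF, which binds the CArG box. To show what stands before them, the 250 bases ahead of the RefSeq start site (GRCm38.p6) were read for the 3 upregulated members with the smallest p that hold a match. Capitals mark matches to the CRE core TGACG on either strand (CGTCA on the other) and to the CArG box.
Dusp5 (chr19:53528895-53529144, plus strand): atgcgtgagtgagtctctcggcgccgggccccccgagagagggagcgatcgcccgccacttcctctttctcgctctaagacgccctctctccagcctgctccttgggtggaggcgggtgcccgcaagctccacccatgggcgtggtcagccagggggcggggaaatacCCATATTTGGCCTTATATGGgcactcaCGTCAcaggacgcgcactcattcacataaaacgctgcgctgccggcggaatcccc
Nr4a1 (chr15:101266596-101266845, plus strand): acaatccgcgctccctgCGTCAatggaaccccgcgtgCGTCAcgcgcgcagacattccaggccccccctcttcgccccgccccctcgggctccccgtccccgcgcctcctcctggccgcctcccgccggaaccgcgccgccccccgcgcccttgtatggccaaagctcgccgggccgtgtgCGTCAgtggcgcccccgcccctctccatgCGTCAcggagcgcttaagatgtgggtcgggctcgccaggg
Junb (chr8:84978749-84978998, minus strand): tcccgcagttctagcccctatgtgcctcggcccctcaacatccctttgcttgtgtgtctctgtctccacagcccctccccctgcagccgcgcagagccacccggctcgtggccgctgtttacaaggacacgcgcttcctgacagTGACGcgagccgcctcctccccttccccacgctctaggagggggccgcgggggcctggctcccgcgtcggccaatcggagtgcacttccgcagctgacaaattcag

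The Dusp5 window holds 2 adjoining CArG boxes and 1 CRE core, the Nr4a1 window 4 CRE cores and the Junb window 1. A window was matched by symbol for 34 of the 41 genes, and for 8 of the 10 upregulated ones, Arc and Ier2 having none. The CRE core was present in 20 of the 34 (58.8%), beside 29.1% of the windows of all genes tested in males that had one. The full CRE, which is the core followed by TCA, was present in 4 of the 34 (11.8%), beside 2.95%, and in none of the 8 upregulated genes with a window. The CArG box was present in 4 of the 34 (11.8%), beside 1.43%. These are matches of letters, and binding was not measured.

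Dusp5, a phosphatase that inactivates ERK in the nucleus, was at 21.1, 18.3, 28.6, 19.3, 31.7 and 25.6 CPM in TIMP2 KO mice 1, 10, 14, 15, 18 and 20. WT males had 14.9 to 22.8 CPM with a median of 18.6. Mice 14, 18 and 20 were above every WT male, and the other 3 lay within the WT range (log2 fold change 0.37, standard error 0.11, exact permutation p = 0.0162). Dusp6, its cytoplasmic counterpart, averaged 60.5 ± 7.29 CPM against 52.6 ± 4.36 (log2 fold change 0.20, standard error 0.06).

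Nr4a1, an orphan nuclear receptor, was at 61.2, 35.4, 53.4, 37.7, 63.8 and 47.5 CPM in the same order of TIMP2 KO mice. In WT males it ran from 29.5 to 55.9 CPM with a median of 35.6, and mice 1 and 18 exceeded that range. Its log2 fold change was 0.36 (standard error 0.13). Arc, which encodes a protein that acts in endocytosis of AMPA receptors, averaged 123 ± 32.9 CPM against 91.1 ± 26.0 (log2 fold change 0.43, standard error 0.17). Arc too was highest in mice 1, 14 and 18, at 148, 136 and 165 CPM, and the WT maximum was 137.

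The transcription factor genes Fos and Junb had log2 fold changes of 0.64 (standard error 0.31) and 0.26 (standard error 0.11). Fos varied more within each group than most genes of the list, at 14.0 ± 5.73 CPM in TIMP2 KO and 9.16 ± 6.00 in WT males. Junb overlaps Prdx2 on the opposite strand. The other upregulated members were Tiparp (0.15), Ier2 (0.36), Ier5 (0.10) and Egr4 (0.20). Fos and Egr4 fell outside the rule for named genes and were added after their values were seen.

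The rise rested on some of the mice. The mean log2 CPM over the list was 4.56 in TIMP2 KO mouse 1, 4.12 in mouse 10, 4.49 in mouse 14, 4.25 in mouse 15, 4.60 in mouse 18 and 4.25 in mouse 20. In WT males it ran from 4.01 to 4.55 with a median of 4.15. Thus 2 of 6 TIMP2 KO males were above every WT male, and WT mouse 31 (4.55) was above 4 of the 6. WT mouse 26 followed at 4.48. The count of 10 fell to 4 without TIMP2 KO mouse 1, to 5 without mouse 14 and to 3 without mouse 18. It was 5 without WT mouse 6, 5 without WT mouse 12, 6 without WT mouse 24 and 15 without WT mouse 26. With all 30 mice in 1 fit it was 1, with voom and sample weights 6, and with total counts as a covariate 16. The exact permutation p was 0.0525 for Nr4a1 and 0.0599 for Arc. In females the median of the list was 0.12. There 2 of 41 genes were higher and 0 lower, beside 5.02% of all genes called in either direction. The difference between sexes had an unadjusted p under 0.05 in 1 gene. Glucocorticoid-responsive genes had a mean of 5.01 in TIMP2 KO mouse 18, above the WT range of 4.50 to 4.94. Their part in the result was not tested.

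**Figure D3:**
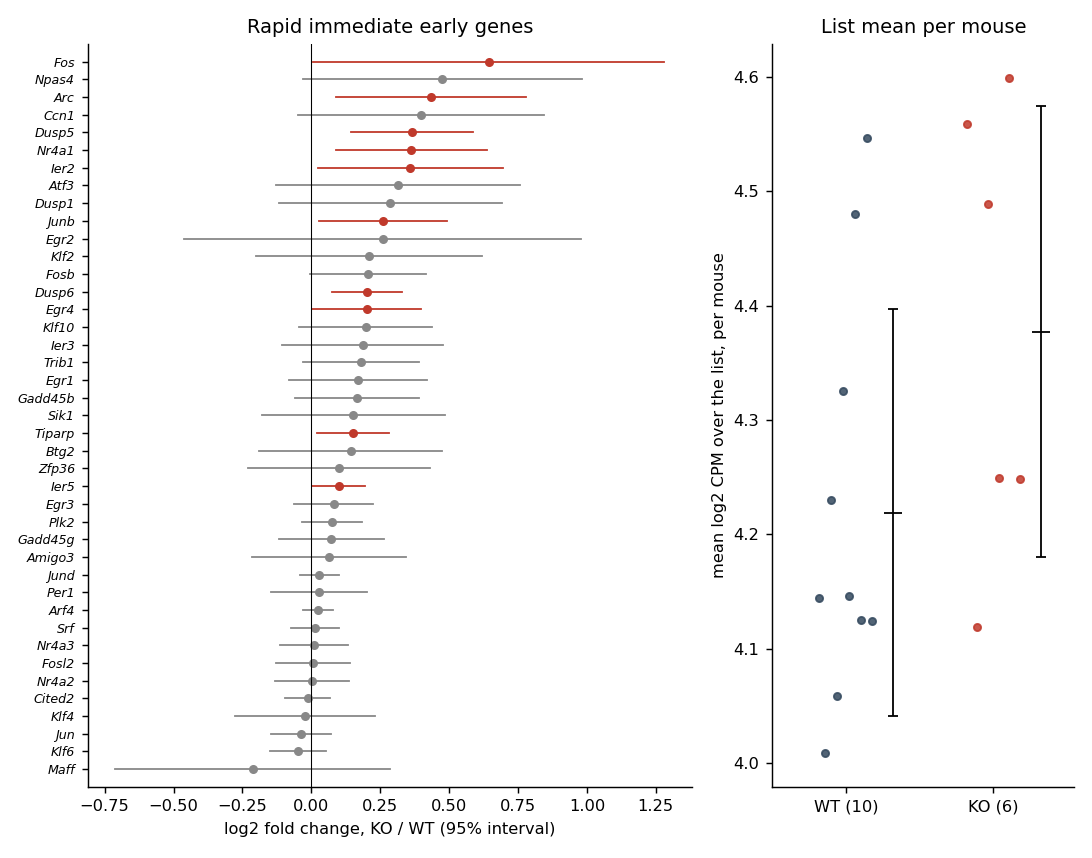
Left, log2 fold change of TIMP2 KO over WT males with its 95% interval for each of 41 rapid immediate early genes, in red where the unadjusted p was under 0.05 (10 genes). Right, the mean log2 CPM over the list in each mouse, with group mean and SD; the 6 TIMP2 KO males run from 4.12 to 4.60 and the 10 WT males from 4.01 to 4.55.

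Delayed activity-regulated genes, which follow the rapid ones, had 3 of 40 members upregulated and 0 downregulated (7.5%, beside 1.61% of all genes), with a median of 0.0244. These were Errfi1, an inhibitor of EGF receptor signalling, at 44.6 ± 4.76 CPM against 40.3 ± 3.29, Gpr3, a receptor that raises cyclic AMP (log2 fold change 0.25), and Vgf, a secreted neuropeptide precursor (0.10). The count was 1 without TIMP2 KO mouse 1, 18 or 20 and without WT mouse 22, 24 or 29.

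Apart from Timp2 itself, TIMP inhibitors and the gelatinase axis had 16 genes tested. Of these, 1 was upregulated and 1 downregulated (6.25% each way, beside 1.61% and 1.64% of all genes), and the median was 0.0156. Timp4, a further inhibitor of the family, was at 37.3 ± 2.09 CPM in TIMP2 KO males and 40.6 ± 3.33 in WT males (log2 fold change -0.12, standard error 0.05, exact permutation p = 0.0388). It overlaps Syn2 on the opposite strand. Mmp17, a membrane-anchored protease, rose by 0.08 on the log2 scale (standard error 0.04). For Timp3 the log2 fold change was -0.04, with a 95% interval that included 0. The gelatinases Mmp2 and Mmp9 were near 2.42 and 1.36 CPM in TIMP2 KO males and 2.37 and 1.36 in WT males, with log2 fold changes of 0.04 (standard error 0.11) and -0.0039 (standard error 0.16). Timp1 was not tested, since it had at most 7 counts in any male. Of 33 other MMP, ADAM and ADAMTS proteases, Adamts15, which cleaves lecticans, fell by 0.31 (standard error 0.15) and no other gene was called. That is 3.03% of the list, beside 1.64% of all genes.

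Perineuronal net genes had 2 of 21 members upregulated and 0 downregulated (9.52%, beside 1.61% of all genes), with a median of -0.0269. Acan encodes aggrecan, the lectican that forms the core of the nets. It was at 2.89, 2.57, 3.84, 4.84, 6.69 and 4.20 CPM in TIMP2 KO mice 1, 10, 14, 15, 18 and 20, and at 2.28 to 3.61 CPM in WT males with a median of 3.17. Mice 14, 15, 18 and 20 were above every WT male, and mice 1 and 10 were inside the WT range. The rise was 0.45 in log2 units (standard error 0.16, exact permutation p = 0.0476, adjusted p = 0.9998 in edgeR), and without mouse 18 it was 0.25, no longer past the threshold. In females it was -0.08, and the p of the difference between sexes was 0.0173, also not significant after correction. Hapln4, a link protein that ties lecticans to hyaluronan, rose from 137 ± 6.38 to 146 ± 10.2 CPM (log2 fold change 0.10), with 0.09 in females. Neither gene was called without mouse 18, and 1 was without mouse 15 or 20.

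Of the wider matrix lists, 1 of 49 collagens, laminins and glycoproteins fell (Col3a1, 2.04%, beside 1.64% of all genes). In glycosaminoglycan synthesis and breakdown, 1 of 41 genes fell (2.44%). Both shares are near that of all genes. The gene of the second list was Cemip, a protein that degrades hyaluronan, at 25.2 ± 2.24 CPM against 27.8 ± 2.73 (log2 fold change -0.14). No integrin was called among 18 tested by edgeR at an unadjusted p under 0.05.

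Adult neurogenesis genes showed 1 of 36 members upregulated and 0 downregulated (2.78%, beside 1.61% of all genes), with a median of 0.00161. The gene called was Gfap, the intermediate filament of astrocytes and of radial glia-like stem cells, at 467 ± 31.1 CPM against 432 ± 32.7 (log2 fold change 0.12). It was also the only 1 of 22 astrocyte genes called (4.55%, beside 1.61% of all genes). In the astrocyte list 18 genes were below 0, with a median of -0.028. Dcx, a microtubule protein of neuroblasts, was at 13.8 ± 2.04 CPM in TIMP2 KO and 14.0 ± 1.23 in WT males (log2 fold change -0.03, standard error 0.08). Sox2, a stem cell factor, Mki67, a marker of cycling cells, and Rbfox3, which encodes NeuN, had log2 fold changes of 0.0099 (standard error 0.05), 0.03 (standard error 0.13) and 0.0066 (standard error 0.04). Ccne1, cyclin E1, was the only 1 of 20 cell cycle genes called (5%, beside 1.61% of all genes), with a log2 fold change of 0.12.

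Few synapse genes were called. Of 66 synaptic adhesion and organizer genes, 2 fell (3.03%, beside 1.64% of all genes), namely Lrrtm4, a postsynaptic organizer of excitatory synapses (26.4 ± 2.08 against 28.4 ± 1.62 CPM), and Slitrk1, a related leucine-rich repeat protein (95.1 ± 7.53 against 101 ± 4.99 CPM). The median of that list was -0.0119, and the count was 0 without TIMP2 KO mouse 18 or 20. Among 37 glutamate receptor genes, Grm3, a metabotropic receptor, fell by 0.10 (2.7%, beside 1.64% of all genes). In the list named voltage-gated ion channels, 1 of 65 genes fell (1.54%, beside 1.64%). It was Kcnj9 of the GIRK family, by 0.11, which is not itself voltage-gated. Among 43 postsynaptic scaffold and plasticity kinase genes, Homer3 rose (2.33%, beside 1.61%) and no other was called. Of 35 GABA genes, Gabrg1, a GABA-A receptor subunit, fell by 0.13 and Slc6a11, a GABA transporter of astrocytes, by 0.08. These are 5.71% of the list, beside 1.64% of all genes. For Gabrg1 the female value was 0.06 and the p of the difference between sexes 0.0098. For the scaffold gene Homer1 the male log2 fold change was 0.03 (standard error 0.07). TIMP2 KO mouse 10 was at 189.7 CPM and the other TIMP2 KO males at 125 to 147.

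Marker genes of choroid plexus, the epithelium that makes cerebrospinal fluid in the neighbouring ventricle, were higher in part of the TIMP2 KO males. Of 16 listed, 11 passed the filter on low counts. Of these 11, 6 were upregulated and 0 downregulated (54.5%, beside 1.61% of all genes), with a median of 0.25. Ttr, the thyroid hormone carrier transthyretin, was at 82.4, 5.01, 1.58, 13.6, 3.90 and 63.5 CPM in TIMP2 KO mice 1, 10, 14, 15, 18 and 20, and at 1.13 to 36.5 CPM in WT males with a median of 4.41. Mice 1 and 20 were above every WT male, and the other 4 were inside the WT range (exact permutation p = 0.195). Clic6, a chloride channel protein, behaved alike, at 4.75 and 4.06 CPM in mice 1 and 20 and at most 1.77 CPM in the other TIMP2 KO males. Folr1, a folate receptor, and Aqp1, a water channel, were at most 1.25 and 0.874 CPM in any male. At such low levels, high values in TIMP2 KO males help a gene pass the filter, so the filter may raise the share of 54.5%. Enpp2, which encodes autotaxin and is also expressed by oligodendrocytes, was at 138 ± 24.5 CPM against 118 ± 11.0. The sixth was Sostdc1, a secreted inhibitor of BMP signalling, at 3.20 ± 0.214 CPM against 2.70 ± 0.411. Without TIMP2 KO mouse 1 the count fell from 6 to 1 and without mouse 20 to 3, and with all 30 mice in the fit the male count was 0. In females 7 of 8 tested were higher and 0 lower, with a median of 0.732, beside 5.02% of all genes called there in either direction. The difference between sexes had an unadjusted p under 0.05 in 2 genes of the list. In bulk tissue, a different number of cells of a type and a different amount of RNA per cell cannot be told apart.

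Meningeal fibroblast markers went the other way in males. Of 16 tested, 4 were downregulated and 0 upregulated (25%, beside 1.64% of all genes), 15 were below 0, and the median was -0.23. Lum, the proteoglycan lumican, was at 3.88, 3.79, 3.91, 3.61, 1.80 and 2.69 CPM in TIMP2 KO mice 1, 10, 14, 15, 18 and 20 and at 3.17 to 4.60 CPM in WT males. Only mice 18 and 20 were below the lowest WT male (log2 fold change -0.34, standard error 0.13, exact permutation p = 0.0160). Fmod, fibromodulin, averaged 2.06 ± 0.584 CPM against 3.43 ± 1.89, and Col3a1, the chain of type III collagen, 1.11 ± 0.350 against 1.60 ± 0.486. Mgp, matrix Gla protein, averaged 6.68 ± 1.13 CPM against 8.13 ± 1.99. The mean over the list was 2.02 to 2.63 on the log2 CPM scale in TIMP2 KO males and 2.29 to 3.08 in WT males, and WT mice 7, 12 and 29 were the highest at 3.08, 3.05 and 2.82. Without WT mouse 7 the count was 2, and likewise without TIMP2 KO mouse 18 or 20. In females the median was 0.14, with 3 of 16 genes higher and 0 lower, beside 5.02% of all genes called there in either direction. For the difference between sexes, 5 of the genes had an unadjusted p under 0.05, beside 2.66% of all 17095 genes tested for it.

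**Figure D4:**
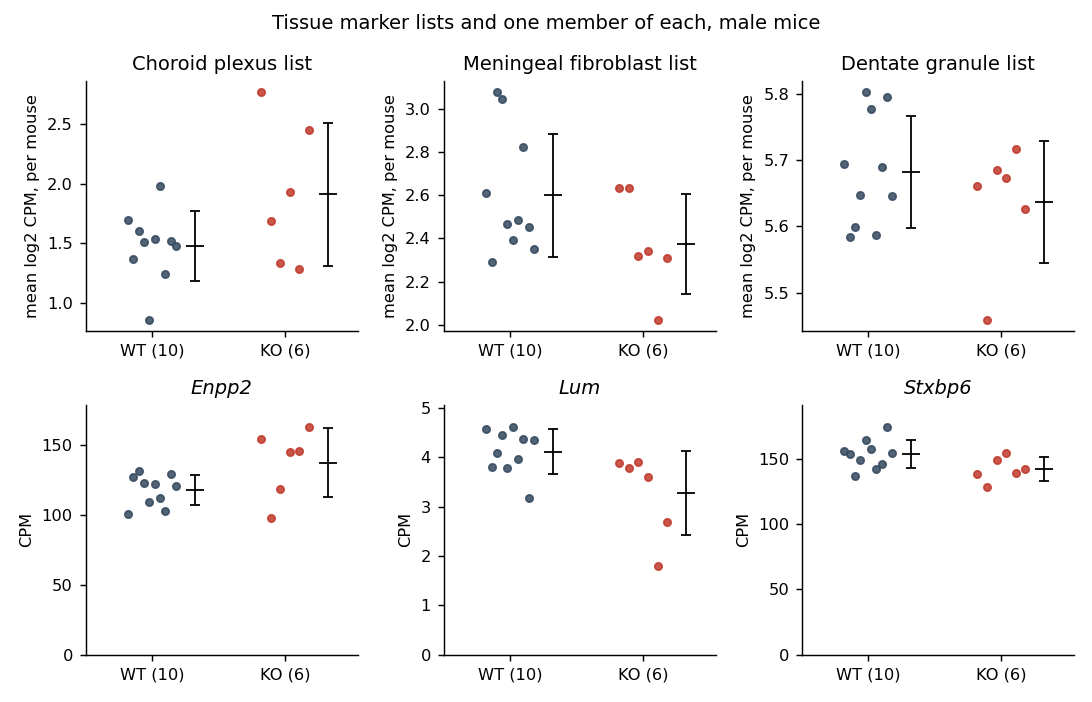
Top, mean log2 CPM over the choroid plexus, meningeal fibroblast and dentate granule lists in each male (vertical axes do not start at 0). Bottom, CPM of Enpp2, Lum and Stxbp6 on axes from 0. Points are mice, bars are mean and SD of 10 WT and 6 TIMP2 KO males, and the groups overlap in each panel.

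Markers of the hippocampal fields were called in small numbers. In the dentate granule cell list, 3 of 20 genes were downregulated and 0 upregulated (15%, beside 1.64% of all genes), and 15 were below 0, with a median of -0.0387. They were Stxbp6, a SNARE-binding protein (142 ± 9.15 against 153 ± 10.6 CPM), Trpc6, a cation channel (22.0 ± 1.17 against 23.9 ± 1.92 CPM), and Tdo2, tryptophan dioxygenase (9.26 ± 1.33 against 10.4 ± 0.911 CPM). Prox1, the factor that defines granule cells, was at 125 ± 10.7 CPM against 133 ± 13.6 (log2 fold change -0.10, standard error 0.06), with a female value of -0.26. In females 13 of the 20 were lower, with a median of -0.17, beside 5.02% of all genes called there in either direction. For the difference between sexes, 2 of the 20 had an unadjusted p under 0.05. For the list as a whole, TIMP2 KO mouse 10 had the lowest mean over the list, 5.46 against 5.63 to 5.72 in the other TIMP2 KO males, and without it 0 of the 20 genes were called in edgeR at an unadjusted p under 0.05. The count was 1 without TIMP2 KO mouse 20 and without WT mouse 2, 12, 26 or 31. None of 12 CA1 pyramidal cell genes was called at that threshold by edgeR. In the mean of that list TIMP2 KO mouse 18 was at 6.09, below the WT range of 6.157 to 6.422. In this mouse Dcn, a gene of that list, was at 5.70 CPM, against 26.95 to 66.18 in WT males. Dcn was named after its values were seen and is not in the counts of named genes below. The part of these differences in the other results was not tested. Of 23 CA2 and CA3 genes, 3 were upregulated and 0 downregulated (13%, beside 1.61% of all genes), and 3 of the 6 TIMP2 KO males were above every WT male in the mean of the list. The upregulated genes were Homer3, a postsynaptic scaffold (0.15), Bok, a BCL-2 family protein (0.14), and Sostdc1, which stands in the choroid plexus list too. That count was 7 without WT mouse 7 and 6 without TIMP2 KO mouse 14.

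Of the lists for tissue next to the hippocampus, 2 of 17 neocortex genes were downregulated and 0 upregulated (11.8%, beside 1.64% of all genes), with a median of -0.0265. These were Foxp2, a transcription factor of deep-layer neurons (1.06 ± 0.255 against 1.49 ± 0.433 CPM), and Scnn1a, a sodium channel subunit used as a marker of layer 4 (6.65 ± 0.932 against 7.61 ± 0.772 CPM). The mean over the neocortex list was 4.50, 4.44 and 4.48 on the log2 CPM scale in TIMP2 KO mice 15, 18 and 20, below every WT male (4.55 to 4.75), and 4.62 to 4.70 in the other 3. Mice 18 and 20 were also the lowest for Lum, and mouse 20 was among the highest for choroid plexus genes. The part of these neighbouring tissues in the other results was not tested. In the thalamus and habenula list 1 of 13 genes was lower (7.69%, beside 1.64% of all genes), the nuclear receptor gene Rora. No striatum gene of 12 was called by edgeR at an unadjusted p under 0.05. The neocortex count was 0 without TIMP2 KO mouse 20, and 1 without TIMP2 KO mouse 10 or 15 and without WT mouse 26 or 29. In females the neocortex median was 0.0624, with 2 of 17 genes lower, beside 5.02% of all genes called there in either direction. Among 28 oligodendrocyte and myelin genes, 23 had a log2 fold change above 0, with a median of 0.0844. The only gene called, Gpr17, went the other way (-0.21, 3.57% of the list, beside 1.64% of all genes). Gpr17 encodes a receptor of differentiating oligodendrocyte precursors. No gene was called at an unadjusted p under 0.05 in edgeR among 22 of microglia and complement, 25 of endothelial and mural cells, 42 of proteasome subunits, 74 of nuclear oxidative phosphorylation and 26 of cholesterol synthesis. Hsp90aa1, a chaperone, rose by 0.07 as 1 of 41 heat shock and unfolded protein response genes (2.44%, beside 1.61% of all genes). Casp8, the initiator caspase, fell by 0.25 while Bok rose. These were the only 2 of 42 apoptosis and necroptosis genes called (2.38% each way, beside 1.64% and 1.61% of all genes). Rora, which also acts in the circadian clock, fell by 0.12 and was the only 1 of 22 clock genes called (4.55%, beside 1.64%). No list held a gene with an adjusted p under 0.05.

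The Y-linked RNA helicase gene Ddx3y can be compared in males alone. It was at 68.7 ± 2.99 CPM in TIMP2 KO males and 74.4 ± 4.36 in WT males (log2 fold change -0.11, standard error 0.04, exact permutation p = 0.00624, adjusted p = 0.9998 in edgeR). It was the only 1 of the 5 tested genes of the list of Y-linked genes and Xist that was called.

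**Figure D5:**
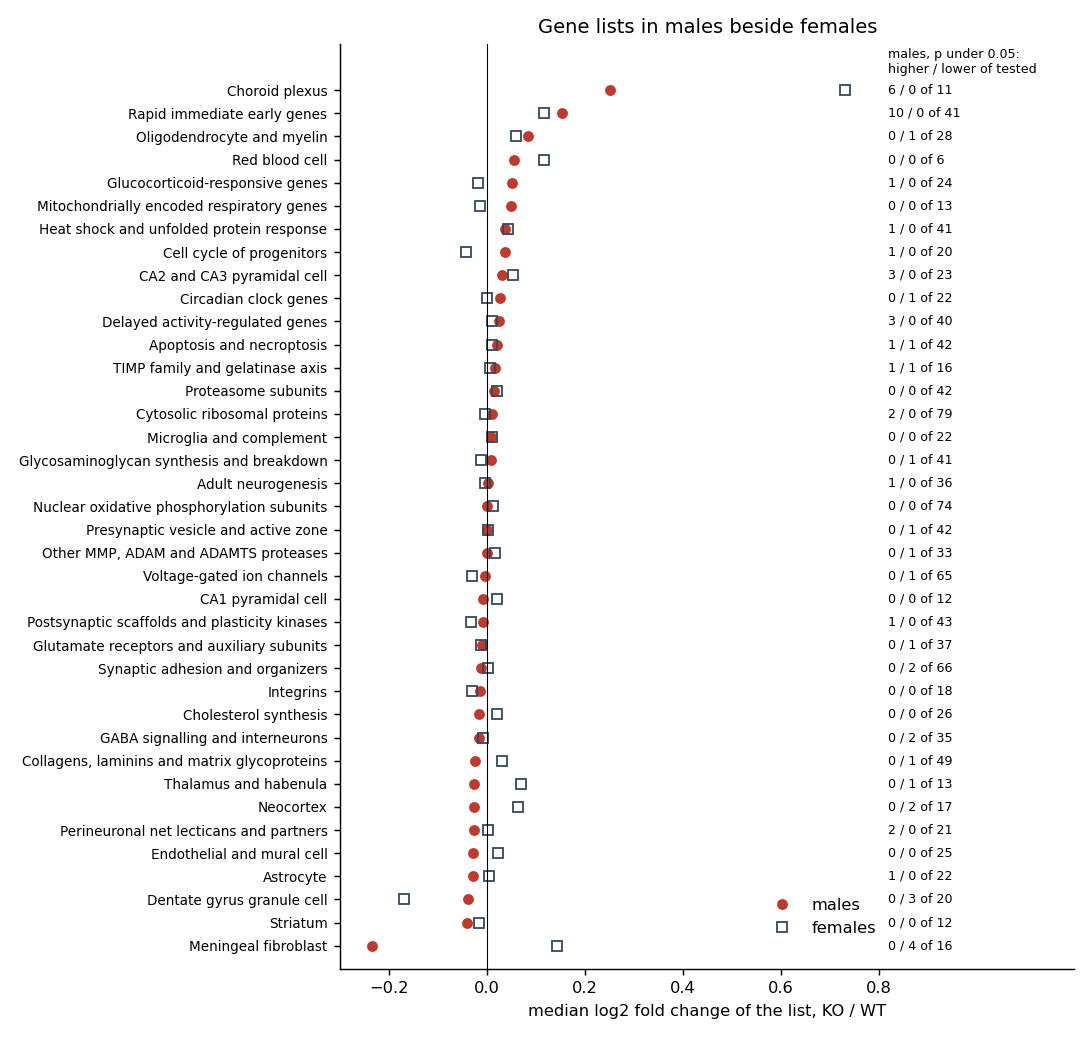
Median log2 fold change of TIMP2 KO over WT (horizontal axis) for 38 gene lists in males (filled circles) and females (open squares), with the numbers of male DEGs higher and lower of those tested at the right. In males the choroid plexus (0.25) and rapid immediate early (0.15) lists are highest and the meningeal fibroblast list (-0.23) is lowest.

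The females, who share no mouse with the males, had 823 genes with an unadjusted p under 0.05 and 2 with an adjusted p under 0.05 in edgeR. Of the 540 male DEGs, 529 were also tested in females, and 362 of these (68.4%) had the same direction there, beside 54.2% of all 16307 genes tested in both. For DEGs within 20 Mb of Timp2, 29 of 33 had the same direction (87.9%), and for those elsewhere 332 of 495 (67.1%). In females 52 of the 529 were DEGs in the same direction, beside 504 of all 16307 genes. In either direction 11.2% of the 529 were DEGs in females, beside 5.01% of all 16307.

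The test of the difference between sexes called 455 of 17095 genes at an unadjusted p under 0.05 (2.66%) and 0 after adjustment in edgeR, where each adjusted p was 1. DESeq2 called 563 and 0. The smallest p belonged to Tmem269, a transmembrane protein gene that rose by 0.61 in males and fell by 0.48 in females (p of the difference 9.18e-05). Cyb561a3 fell by 0.26 in males and had a female value of 0.13 (p of the difference 0.000138). Zfp524, a zinc finger gene, had 0.29 in males and -0.22 in females, and Rimklb, which encodes a ligase of N-acetylaspartylglutamate synthesis, -0.15 and 0.07. Tbc1d20, a GTPase-activating protein for Rab1, was at 0.03 in males, not a DEG there, and at -0.14 in females. Tmem269 shares its strand with the overlapping AU022252, and Zfp524 lies opposite Fiz1.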

How the data were processed

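Hippocampal RNA of 16 male mice (6 TIMP2 KO, 10 WT) was analysed, with 14 females set beside it. Per the methods and the submitters' processing notes, the authors made poly(A)-selected paired-end libraries, aligned them to GRCm38 with STAR 2.5.2b, and deposited raw counts per gene; the notes also name Trimmomatic 0.36, featureCounts and Subread 1.5.2. The strand setting and the annotation release are not given in the sources used here. Raw counts carry no normalization, so library sizes were scaled here. All columns were matched to a mouse by title.

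TMM factors, filterByExpr and the quasi-likelihood test came from edgeR 4.0.16 in R 4.3.3 (16607 of 49315 genes tested), with Benjamini-Hochberg adjustment and genotype as the only term. The study's comparison used DESeq2. Log2 CPM used a prior count of 2. Symbols and positions came from GENCODE M21, with 259 identifiers unmatched. The interaction was fitted on 4 group means. Exact permutations enumerated 8008 assignments, 2-sided. The test was also tried on counts simulated from the males' means and dispersions, and no result given here rests on that trial.

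The members and the 39 gene lists were chosen with earlier results of these data known. Named genes were Timp2, up to 15 with an adjusted p under 0.05, the 10 smallest p in each direction at a mean of at least 1 CPM, up to 8 per list with the smallest p, the genes the study is about, and 5 by interaction. Alternatives were DESeq2 1.42.0, RLE factors, no filter, at least 10 counts per mouse, limma 3.58.1 voom, all 30 mice, sva 3.50.0, total counts as a covariate, and leaving out each male. The labels name separate mice. Age and harvest date could not be fitted, since the labels give neither per mouse. For its co-expression networks the study adjusted expression for isolation or harvest date, which it names a significant source of variation.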

Additional observations from a re-analysis of the deposited data

Results flagged for a closer look

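In 240 groups of male mice (the named genes and the list means, on the log2 CPM scale), the gap between the highest or lowest mouse and its nearest neighbour was divided by the range of the group (Dixon's ratio). Chance alone puts about 1 in 20 groups past the critical value, or 12 here, and 16 were past it. In the TIMP2 KO males, mouse 18 was lowest for Timp2 (7.01, others 7.28 to 7.38) and for the adult neurogenesis list (4.76, others 4.87 to 4.90), and highest for Dusp6 (6.23, others 5.80 to 5.89). Mouse 10 was highest for Homer1 (7.57, others 6.97 to 7.19) and lowest for the dentate granule cell list (5.46, others 5.63 to 5.72). Mouse 15 was highest for Mki67 (1.23, others 0.594 to 0.759), and mouse 1 for Mgp (3.17, others 2.59 to 2.76).

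In the WT males, mouse 6 was lowest for the mitochondrially encoded respiratory genes (6.43, others 7.52 to 7.73), for Rbfox3 (8.10, others 8.25 to 8.37) and for 2900041M22Rik (0.119, others 0.801 to 1.31). The same mouse was highest for the proteasome list (6.04, others 5.90 to 5.97) and for Ddx3y (6.41, others 6.12 to 6.26). Mouse 24 was highest for the glucocorticoid-responsive list (4.94, others 4.50 to 4.71) and lowest for Sox2 (5.50, others 5.70 to 5.87). Mouse 22 was lowest for Sostdc1 (0.862, others 1.28 to 1.65), and mouse 31 for Lum (1.70, others 1.95 to 2.22).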

How the results depend on the processing

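The study reports littermate controls, but the labels give no litter, so no paired analysis was possible. Timp2 kept its direction and its call in every alternative, at -1.07 to -0.993 when single males were left out. Leaving out single males gave 3 adjusted calls each time, 492 to 744 DEGs (241 to 360 higher, 229 to 384 lower) and 24 to 32 within 10 Mb of Timp2. List counts then ran from 3 to 15 for rapid immediate early genes, 1 to 3 for delayed ones, 1 to 7 for choroid plexus, 2 to 5 for meningeal fibroblast, 0 to 4 for dentate granule cell, 2 to 7 for CA2 and CA3, 0 to 2 for perineuronal net, 0 to 3 for neocortex and 0 to 2 for synaptic adhesion genes. Without a filter on low counts, 1413 genes were called (707 higher, 706 lower) among 31616. With 4 surrogate variables, 415 were lower, and 8 meningeal genes fell. At least 10 counts per male left 3 choroid plexus genes. Voom gave 6 rapid immediate early and 1 synaptic adhesion gene. With all 30 mice, 1 rapid immediate early, 2 meningeal and 1 synaptic adhesion gene were called, and 0 choroid plexus, dentate or CA2 and CA3 genes in edgeR. With total counts as a covariate the counts were 16 rapid immediate early, 7 meningeal, 1 dentate, 1 neocortex, 0 synaptic adhesion and 0 perineuronal net genes. The causes of these shifts were not tested. Of 71 named genes with a call, 31 kept it whichever male was left out. Of 1990 values of named genes, 307 lost their call and 24 changed sign. Those 24 concerned genes without a call: Rbfox3 (-0.021 with voom, -0.0446 with surrogate variables, -0.0104 with total counts), Homer1 (-0.00619 with voom, -0.0396 with total counts), Dcx (0.011 with surrogate variables) and Mmp9 (0.0162 with total counts, 0.0161 in the permutation). Leaving out single males gave Mmp9 -0.0599 to 0.0544, Rbfox3 -0.0361 to 0.0272, Homer1 -0.0642 to 0.0655, Mki67 -0.082 to 0.0700, Sox2 -0.0227 to 0.0485 and Dcx -0.083 to 0.044. Depth limits the genes under 1 CPM, which were 76 of the 540 DEGs.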
